A study of Mus musculus with 12 samples.

Results

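Collagen is modified inside the endoplasmic reticulum (ER) before it is secreted, and the genes described here encode that modification step in mouse cells. They are 9 genes chosen by name: the collagen prolyl 4-hydroxylase alpha subunits P4ha1 (ENSMUSG00000019916), P4ha2 (ENSMUSG00000018906) and P4ha3 (ENSMUSG00000051048), their beta subunit P4hb (ENSMUSG00000025130), the lysyl hydroxylases Plod1 (ENSMUSG00000019055), Plod2 (ENSMUSG00000032374) and Plod3 (ENSMUSG00000004846), the prolyl 3-hydroxylase P3h1 (ENSMUSG00000028641) and the collagen chaperone Serpinh1 (ENSMUSG00000070436). They are 9 of 37583 genes counted, and all 9 were among the 16240 genes that passed the filter on low counts.

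Poly-A RNA-seq was done on 12 libraries, 2 replicates of each of 6 groups, all of the strain 129SV/Jae/C57BL6J. Reprogramming began from fibroblasts of mouse embryos (MEF), grown in their own MEF medium, and its product was induced pluripotent stem cells (iPSC), grown in ES medium. The other 4 groups are intermediates, all SSEA1+, from cultures kept in ES medium with dox and AA (ascorbic acid). Those of day 3 were CD73- Sca1+ (labelled Ineff, d3_Ineff here) or CD73+ Sca1- (labelled Eff, d3_Eff), and those of day 6 were EpCAM- Sca1+ (d6_Ineff) or EpCAM+ Sca1- (d6_Eff). Cells of every group were trypsinised, stained with antibodies and sorted. The 4 groups of intermediates share 1 medium, and "sorted" below refers to these 4 only, although MEF and iPSC were sorted too. In comparisons with MEF or iPSC the medium changes with the group, so effects of medium and of cell state cannot be told apart there. The labels used here do not say whether the 2 replicates were separate cultures, embryos or lines, so each p-value covers no more than how far the sampled libraries lie apart, which may be technical. In bulk samples such as these, fewer cells that express a gene and less RNA per cell cannot be told apart.

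Gene counts per library ranged from 9284060 to 22763548. The library MEF 2 was the lowest, and 47.2% of its reads fell outside genes, against 24.1% in d6_Eff 2 and 5.1% to 11.7% in the other 10. The MEF pair differed by more than 2-fold at 34.6% of the tested genes, against 10.4% to 15.6% in the other pairs. Fibroblast and pluripotency markers went with the labels of MEF and iPSC. Of 10 fibroblast markers 10 were lower in iPSC than in MEF, as were 26.7% of all genes. Their summed level was 8219 to 18429 CPM (counts scaled to 1e+06 gene counts, TMM-adjusted) in MEF and 693 to 698 CPM in iPSC, where Dcn and Lum had no counts. The sum does not follow each gene: it was 634 to 696 CPM in d6_Eff, although Prrx1 was 167-fold and Sparc 2.38-fold lower in iPSC than in d6_Eff. The sum of 10 pluripotency markers was 2.32 to 2.51 CPM in MEF, 38.6 to 317 CPM in the sorted groups and 8800 to 9259.9 CPM in iPSC. On day 6, 5 of the 10 were higher in d6_Eff than in d6_Ineff (5.38% of all genes). Esrrb was lower, 4.41-fold (adjusted p = 0.00166 by edgeR), as were 9.25% of all genes. On day 3 none of the 10 differed at an adjusted p under 0.05. Leukocyte markers summed to 9.86 to 18.4 CPM in MEF, 207 to 492 CPM in the sorted groups and 56.3 to 63.1 CPM in iPSC, and endothelial markers to 2.09 to 3.72, 81.3 to 162 and 55.9 to 59.1 CPM. Of the leukocyte sum Laptm5 alone held 199.5 to 479 CPM as group means in the sorted groups, and Ptprc had no counts in d3_Eff, d6_Ineff, d6_Eff and iPSC. The endothelial sum was made up of different genes in different groups. Cldn5, Emcn and Pecam1 had no counts in d3_Ineff, and Cdh5 and Emcn had none in iPSC. Pecam1 was 313-fold higher and Tek 15.3-fold lower in iPSC than in d6_Eff. Chondrocyte and osteoblast markers summed to 40.3 to 164 CPM and keratinocyte markers to 1.84 to 8.52 CPM over all libraries. The chondrocyte and osteoblast sum was highest in iPSC (156 to 164 CPM), where Runx2 had no counts. Of 5 of its 9 genes tested, 1 was higher in iPSC than in MEF (Alpl, 800.2-fold) and 3 lower, beside 26% and 26.7% of all genes. The part of these other cell types in the results was not tested.

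Prolyl 4-hydroxylase is a tetramer of alpha subunits, which carry the active site, and beta subunits, which are the protein disulfide isomerase P4HB. It hydroxylates prolines in the collagen repeat, which makes the triple helix stable at body temperature, and it uses iron, oxygen, 2-oxoglutarate and ascorbate to do so. Lysyl hydroxylases modify lysines that later carry sugars and crosslinks, P3H1 hydroxylates selected prolines at the 3 position in a complex with CRTAP, and SERPINH1 (HSP47) holds folded procollagen on its way out of the ER. P4ha1, P4ha2 and Plod2 are textbook targets of hypoxia-inducible factor, whose binding sites have the core ACGTG or GCGTG.

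Promoters are shown for 4 members whose levels parted in the results below, P4ha1 and P4ha2 (lowest in d6_Eff and higher again in iPSC) and P4ha3 and Serpinh1 (lowest in iPSC). Each is the 250 bases before the RefSeq start site on GRCm38.p6, written 5′ to 3′ along the gene, with ACGTG on either strand in capitals (it reads CACGT when it lies on the other strand).
P4ha1 (chr10:59323046-59323295, plus strand): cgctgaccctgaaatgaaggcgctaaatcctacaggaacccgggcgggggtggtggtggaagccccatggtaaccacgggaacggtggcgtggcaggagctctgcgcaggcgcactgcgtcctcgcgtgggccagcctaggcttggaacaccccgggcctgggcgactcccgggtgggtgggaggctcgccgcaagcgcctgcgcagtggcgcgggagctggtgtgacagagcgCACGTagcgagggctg
P4ha2 (chr11:54100674-54100923, plus strand): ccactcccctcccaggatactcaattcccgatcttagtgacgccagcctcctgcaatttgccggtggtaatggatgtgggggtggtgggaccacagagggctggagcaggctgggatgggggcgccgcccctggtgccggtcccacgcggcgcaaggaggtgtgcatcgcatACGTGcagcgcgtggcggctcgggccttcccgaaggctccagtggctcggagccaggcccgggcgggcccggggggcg
P4ha3 (chr7:100285270-100285519, plus strand): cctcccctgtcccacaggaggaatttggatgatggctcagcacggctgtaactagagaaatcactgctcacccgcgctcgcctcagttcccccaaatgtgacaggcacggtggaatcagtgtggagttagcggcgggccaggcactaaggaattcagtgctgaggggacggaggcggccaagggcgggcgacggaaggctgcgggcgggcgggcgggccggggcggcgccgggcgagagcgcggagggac
Serpinh1 (chr7:99353240-99353489, minus strand): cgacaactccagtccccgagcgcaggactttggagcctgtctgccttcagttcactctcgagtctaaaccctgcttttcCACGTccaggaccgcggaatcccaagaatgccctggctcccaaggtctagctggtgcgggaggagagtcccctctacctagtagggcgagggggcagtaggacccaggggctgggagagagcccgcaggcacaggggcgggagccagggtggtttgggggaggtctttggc
The match lay 16 bases before the start in P4ha1, 78 in P4ha2 and 171 in Serpinh1, counted to its first base, and P4ha3 had none. A promoter entry was found for 8 of the 9 members, with 2 windows for P3h1 and so 9 in all. ACGTG was in 6 of these 9 windows (P4ha1, P4ha2, P4hb, Plod3, Serpinh1 and the second of P3h1), against 16.6% of all 32851 windows of this length. Among those with it were genes called higher (P4ha1, P4ha2) and genes called lower (Plod3, Serpinh1) in iPSC than in d6_Eff. The other form of the core, GCGTG, is not in capitals above. Also searched on both strands, it was in 28.2% of all windows and in 6 of the 9 (P4ha1, P4ha2, P4hb, Plod1, Plod3 and the first of P3h1). The ER stress response element, whose end can overlap an ACGTG match on the other strand, was in 0.113% of all windows and in no member's. A match describes these letters only.

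The mean level of each of the 9 genes was highest in MEF. For P4ha3 the d6_Ineff libraries overlapped those of MEF, and for the other 8 both MEF libraries lay above every other library, as they did in 16.2% of all genes. A gene is called here where edgeR's quasi-likelihood F-test gave a Benjamini-Hochberg adjusted p under 0.05 over all 16240 genes. Against MEF, 9 of 9 members were lower in iPSC, where 52.7% of all tested genes were called (26% higher, 26.7% lower), with a median log2 fold change of -2.39 beside 0.04 for all genes. The count was 9 of 9 lower in d3_Ineff (of all genes 30% called, 15% higher and 15% lower; median of the members -2.16), 9 of 9 in d3_Eff (36.5%, 18% and 18.6%; median -2.32) and 9 of 9 in d6_Eff (42.6%, 20.9% and 21.7%; median -2.56). In d6_Ineff it was 7 of 9 (30.8%, 15.6% and 15.2%; median -1.81), and P3h1 and P4ha3 were not called. These 5 comparisons share the 2 MEF libraries, so their counts do not support each other. The summed level of the 9 genes was 8301 to 8738 CPM for MEF and 2191 to 2411 CPM for d6_Ineff. It was 1514 to 1566 CPM for d6_Eff, then 1021 to 1087 CPM for iPSC. Serpinh1 and P4hb held most of this sum (means of 3984 and 2715 CPM in MEF), so it does not follow each gene. The Serpinh1 mean was 839 CPM in d6_Eff and 115 CPM in iPSC. Means of P4ha3, Plod2 and Plod3 were also lower in iPSC than in d6_Eff. Those of P4ha1, P4ha2, P4hb, Plod1 and P3h1 were higher.

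**Figure D1:**
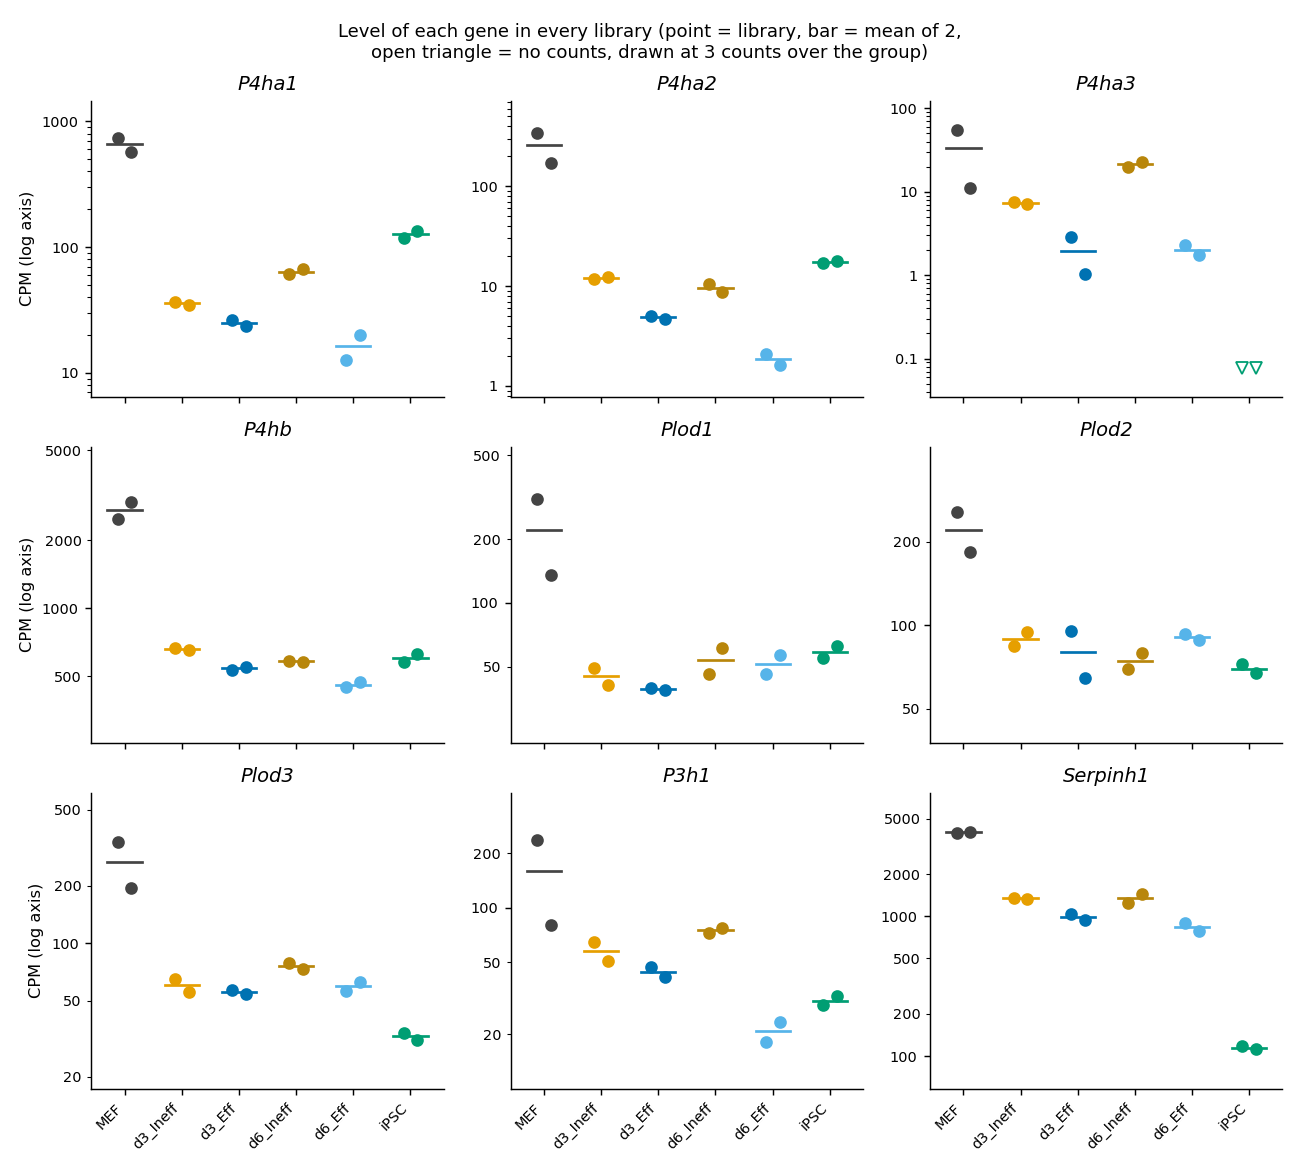
CPM on a log axis (its range differs by panel) for each of the 9 genes in every library, by group; points are libraries, bars the mean of 2, and open triangles mark libraries with no counts, drawn at 3 counts over the group (0.078 CPM). The MEF mean is highest in all 9 panels, P4ha1 and P4ha2 turn up again in iPSC, and Serpinh1, Plod3 and P4ha3 are lowest there.

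The MEF libraries differed from each other in these genes as well. MEF 1 exceeded MEF 2 in 7 of 9 members, by 5.04-fold in P4ha3, 2.95-fold in P3h1 and 2.27-fold in Plod1, while P4hb and Serpinh1 were 0.843 and 0.992 times as high in MEF 1 as in MEF 2. Without MEF 2, all 9 members were called lower than MEF in each of the 5 comparisons. Without MEF 1, the count stayed at 9 for iPSC, d3_Eff and d6_Eff and was 7 for d3_Ineff, where P3h1 (log2 fold change -0.47, adjusted p = 0.091) and P4ha3 (-0.58, adjusted p = 0.379) were no longer called, and 7 for d6_Ineff. These 2 calls in d3_Ineff also depended on its own libraries: P4ha3 had an adjusted p of 0.111 without d3_Ineff 1 and 0.121 without d3_Ineff 2, and P3h1 one of 0.0913 without d3_Ineff 2. With only the 2 groups compared in the fit, 6 of 9 members were called lower than MEF in d3_Ineff, without P3h1 (adjusted p = 0.124), P4ha3 (0.11) and Serpinh1 (0.0563), and 6 of 9 in d6_Ineff, without Serpinh1 as well (0.0582).

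P4ha1, the major alpha subunit gene of most tissues, was lowest in d6_Eff and stood higher in iPSC than in any sorted population. Its level was 744 and 576 CPM in the MEF libraries, 36.4 and 34.9 in d3_Ineff, 26.1 and 23.4 in d3_Eff, then 60.9 and 66.5 (d6_Ineff), 12.7 and 20 (d6_Eff) and 118 and 134 (iPSC). No 2 groups overlapped, in the order MEF, iPSC, d6_Ineff, d3_Ineff, d3_Eff and d6_Eff. In the pairs of groups compared here, 40.3% to 72.9% of all genes did not overlap. No share of all genes was computed for all 6 groups apart. The log2 fold change against MEF was -5.34 ± 0.27 (SE; adjusted p = 1.5e-07 by edgeR) in d6_Eff and -2.39 ± 0.23 (adjusted p = 7.77e-06) in iPSC, a 40.6-fold and a 5.23-fold lower level.

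P4ha2, an alpha subunit known from cartilage and bone, also had its lowest level in d6_Eff and its highest outside MEF in iPSC. It was at 343 and 172 CPM in MEF, 11.9 and 12.4 in d3_Ineff, 4.99 and 4.73 in d3_Eff, then 10.4 and 8.69 (d6_Ineff), 2.09 and 1.64 (d6_Eff) and 16.9 and 17.9 (iPSC). The 6 groups did not overlap, beside the same shares of all genes as for P4ha1. Here d3_Ineff lay above d6_Ineff where P4ha1 had the opposite order. Its lowest group, d6_Eff, was 137-fold below MEF (log2 fold change -7.09 ± 0.37 (SE), adjusted p = 1.94e-07 by edgeR). In iPSC it stood 14.8-fold below MEF (-3.89 ± 0.31, adjusted p = 2.01e-06). Without MEF 1 the folds were 89.9 and 9.78.

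P4ha3, the third alpha subunit gene, was highest outside MEF in d6_Ineff and had no counts in iPSC. The libraries held 55.5 and 11 CPM in MEF, 7.52 and 7.06 in d3_Ineff, 2.86 and 1.04 in d3_Eff, 19.9 and 23 in d6_Ineff, and 2.27 and 1.76 in d6_Eff. In iPSC no read was counted for it in 22577091 and 14911103 gene counts, so its level there was at least 427-fold lower than in MEF, taking 3 counts over the group (0.078 CPM) as the floor (counting error only; adjusted p = 4.15e-05 by edgeR). The bound was 712-fold against MEF 1 alone and 141-fold against MEF 2 alone. The d6_Ineff libraries lay between the MEF libraries. Their difference from MEF was not called (-0.65 ± 0.62 (SE), adjusted p = 0.463), was 0.97 without MEF 1 and, with an adjusted p of 0.00671, -1.45 without MEF 2.

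P4hb, the beta subunit, is shared with general disulfide formation in the ER, and it varied little once MEF was left behind. Its level was 2484 and 2946 CPM in MEF, 663 and 654 in d3_Ineff, 534 and 550.2 in d3_Eff, then 585 and 578 (d6_Ineff), 447 and 471 (d6_Eff) and 579 and 629 (iPSC). Among the 5 groups other than MEF the highest mean was 1.43 times the lowest. Against MEF it was 4.5-fold lower in iPSC (log2 fold change -2.17 ± 0.18 (SE), adjusted p = 2.81e-06 by edgeR) and 5.91-fold lower in d6_Eff (-2.56 ± 0.19, adjusted p = 1.58e-06).

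Of the lysyl hydroxylases, Plod1, which acts on the helical part of collagens, and Plod2, which acts on the telopeptides where crosslinks form, were also nearly level outside MEF. Plod1 was at 309 and 136 CPM in MEF and between 38.8 and 62.3 CPM in the 10 other libraries, and neighbouring groups from iPSC down to d3_Ineff overlapped. Plod2 was at 257 and 184 CPM in MEF and between 64.6 and 95.6 CPM elsewhere, with every neighbouring pair of groups below MEF overlapping. Their highest means outside MEF were 1.49 and 1.3 times their lowest. Against MEF, iPSC was 3.81-fold lower in Plod1 (log2 fold change -1.93 ± 0.33 (SE), adjusted p = 0.000493 by edgeR) and 3.16-fold lower in Plod2 (-1.66 ± 0.23, adjusted p = 0.00011), which was the smallest of the 9 differences. The Plod1 difference was -1.21 (adjusted p = 7.18e-05) without MEF 1 and -2.46 (1.36e-08) without MEF 2.

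Plod3, which besides hydroxylating lysine can add sugars to hydroxylysine, had a further step down in iPSC. It was at 341 and 195 CPM in MEF, 64.7 and 55.4 in d3_Ineff, 56.8 and 54.5 in d3_Eff, then 78.9 and 73.5 (d6_Ineff), 56.3 and 62.4 (d6_Eff) and 33.7 and 31.2 (iPSC). Both iPSC libraries lay below every other library, for which no share of all genes was computed. The iPSC level was 8.25-fold below MEF (-3.04 ± 0.26 (SE), adjusted p = 2.75e-06 by edgeR). Exons of Plod3 share 529 bases, 11.7% of its exon length, with Znhit1 on the opposite strand, and the counting ignored strand, so reads of these genes cannot be told apart there.

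P3h1, the prolyl 3-hydroxylase, was lowest in d6_Eff. It was at 237 and 80.4 CPM in MEF, 64.2 and 50.6 in d3_Ineff, 46.7 and 41.4 in d3_Eff, then 72.8 and 77.5 (d6_Ineff), 18.2 and 23.4 (d6_Eff) and 28.8 and 32.5 (iPSC). No groups overlapped (in a single pair compared, 40.3% to 72.9% of all genes did not), although MEF 2 lay just above the d6_Ineff libraries. The level was 5.2-fold below MEF in iPSC (-2.38 ± 0.4 (SE), adjusted p = 0.000447 by edgeR) and 7.67-fold below it in d6_Eff (-2.94 ± 0.41, adjusted p = 0.000164). Without MEF 1 these were -1.38 (adjusted p = 2.01e-05) and -1.94 (4.53e-07), and without MEF 2 -3.01 and -3.62. In d6_Ineff the difference missed the threshold (-1.08 ± 0.38, adjusted p = 0.0517). It was -0.08 (adjusted p = 0.799) without MEF 1 and -1.73 (adjusted p = 2.34e-06) without MEF 2.

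Serpinh1 is the most abundant of the 9 per length everywhere but in iPSC. Its libraries held 3968 and 4000.3 CPM in MEF, 1363 and 1332 in d3_Ineff, 1047 and 944 in d3_Eff, then 1247 and 1443 (d6_Ineff), 889 and 789 (d6_Eff) and 118 and 112 (iPSC). The sorted groups lay close together and well below MEF, and iPSC lay far below them. Against MEF it was 2.96-fold lower in d3_Ineff (-1.56 ± 0.19 (SE), adjusted p = 0.000108 by edgeR) and 34.6-fold lower in iPSC (-5.11 ± 0.22, adjusted p = 3.69e-08).

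The comparison of d3_Eff with d3_Ineff asks whether the populations already differ on day 3. None of the 9 members was called, where 0.4% of all genes were (0.16% higher, 0.24% lower), and the median log2 fold change was -0.38. At an unadjusted p under 0.05 there were 4 members, beside 8.11% of all genes, all lower in d3_Eff: P4ha2 (-1.32 ± 0.3 (SE), adjusted p = 0.101 by edgeR), P4ha3 (-1.88 ± 0.68, adjusted p = 0.417), P4ha1 (-0.52 ± 0.22, adjusted p = 0.569) and Serpinh1 (-0.44 ± 0.18, adjusted p = 0.553). The libraries of d3_Eff lay below those of d3_Ineff in 7 members and overlapped them in Plod2 and Plod3, where 20.7% of all genes lay wholly below and 19.7% wholly above. DESeq2 called 1 member, P4ha2. The fibroblast markers summed to 1989 to 2034 CPM in d3_Ineff and 827 to 1125 CPM in d3_Eff, with 1 of 10, Sparc, called lower, and their part was not tested. Without either MEF library, P4ha2 and P4ha3 were called, with nearly the same fold changes: P4ha2 had -1.32 without MEF 1 and -1.36 without MEF 2.

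On day 6 the alpha subunits, P3h1 and Serpinh1 were lower in d6_Eff than in d6_Ineff, and the beta subunit and the lysyl hydroxylases were not called. The 5 called members stand beside 14.6% of all genes called (5.38% higher, 9.25% lower). In d6_Eff, P4ha1 was 3.91-fold lower than in d6_Ineff (-1.97 ± 0.23 (SE), adjusted p = 0.000386 by edgeR) and P4ha2 5.06-fold (-2.34 ± 0.32, adjusted p = 0.000943). P4ha3 was 10.5-fold lower (-3.4 ± 0.7, adjusted p = 0.00996) and P3h1 3.62-fold (-1.86 ± 0.39, adjusted p = 0.00962). Serpinh1 had the smallest called difference, 1.6-fold (-0.68 ± 0.18, adjusted p = 0.0307). Both d6_Eff libraries lay below both d6_Ineff libraries in each of the 5, as in 31.8% of all genes. Of the 4 others, Plod2 was above in both libraries (0.28 ± 0.22, adjusted p = 0.453), P4hb (-0.34 ± 0.18, adjusted p = 0.233) and Plod3 (-0.36 ± 0.24, adjusted p = 0.36) were below, and Plod1 overlapped (-0.07 ± 0.32, adjusted p = 0.936). P4hb was called lower without MEF 2 (-0.37, adjusted p = 0.0343).

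The fibroblast markers moved with these genes: their sum was 2208 to 2509 CPM in d6_Ineff and 634 to 696 CPM in d6_Eff, 4 of 10 were called lower, and Pdgfra had no counts in d6_Eff. Endothelial markers summed to 157 to 162 CPM in d6_Ineff and 81.3 to 81.5 CPM in d6_Eff (3 called lower of 6 tested, of 7 in the list), and leukocyte markers to 481 to 492 and 207 to 210 CPM (1 called lower of 5 tested, of 8). Their part in the result was not tested. The count of 5 was 3 without d6_Eff 1, without which P3h1 (adjusted p = 0.06) and Serpinh1 (0.0929) were not called, and 3 without d6_Eff 2, without which P4ha3 (0.0818) and Serpinh1 (0.239) were not. The Serpinh1 call was lost when any of 9 single libraries was left out, with adjusted p from 0.0507 to 0.239.

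**Figure D2:**
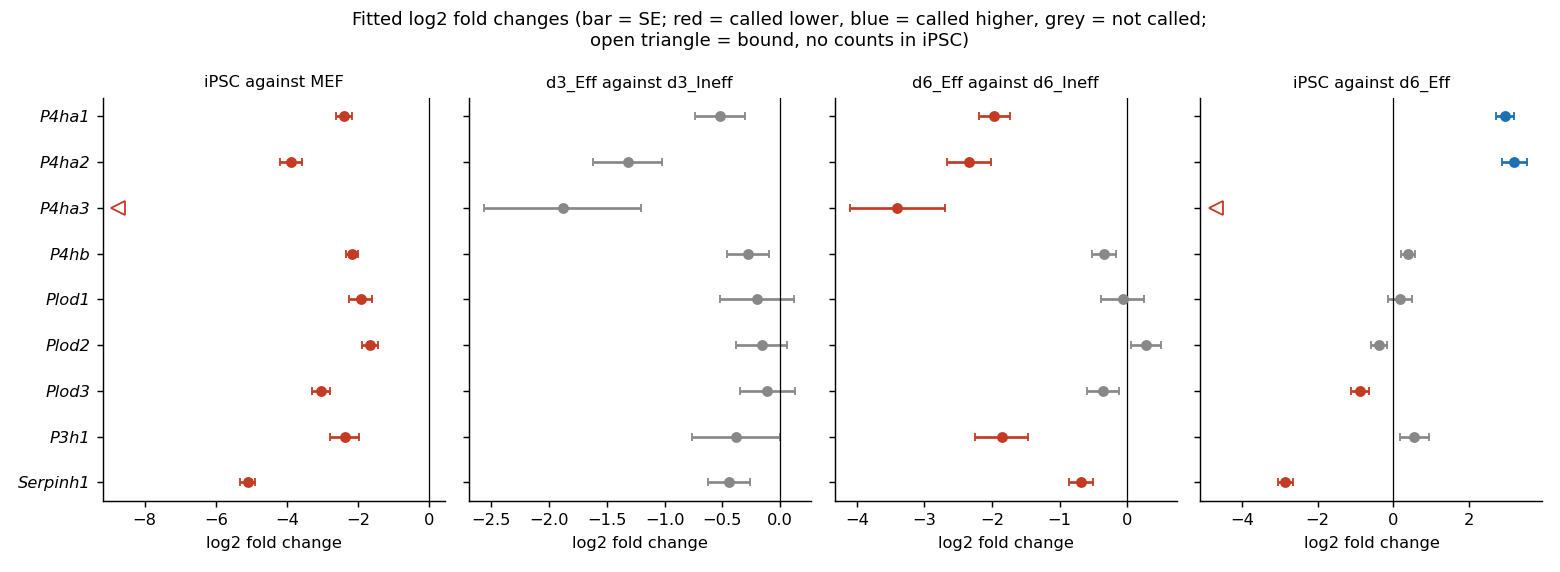
Fitted log2 fold changes (x axis, its range differs by panel) of the 9 genes in 4 comparisons, with bars of 1 SE; colours mark calls and open triangles the bounds for P4ha3, which had no counts in iPSC. On day 6 the 3 alpha subunits, P3h1 and Serpinh1 are called lower in d6_Eff, and from d6_Eff to iPSC P4ha1 and P4ha2 are called higher while P4ha3, Plod3 and Serpinh1 are called lower.

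From day 3 to day 6, no member was called within the Ineff populations, where 4.42% of all genes were (3.19% higher, 1.23% lower). P4ha1 (0.84 ± 0.22 (SE), adjusted p = 0.0623 by edgeR) and P4ha3 (1.55 ± 0.63, adjusted p = 0.224) were higher in d6_Ineff in both libraries, as were 28.5% of all genes. They were the 2 members at an unadjusted p under 0.05, beside 18.3% of all genes, and DESeq2 called P4ha1. Within the Eff populations 1 member was called lower, P4ha2 (2.58-fold, -1.37 ± 0.33, adjusted p = 0.0233), where 9.11% of all genes were called (4.24% higher, 4.87% lower). That call was lost without either d3_Eff or either d6_Eff library and with only the 2 groups in the fit (adjusted p = 0.0759). Without either MEF library, which belong to neither of these comparisons but share the estimate of the spread, the counts were 2 members (P4ha1 and P4ha3) within the Ineff and 3 (P4ha1, P4ha2 and P3h1) within the Eff populations.

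Whether the gap between Eff and Ineff widened from day 3 to day 6 was tested as an interaction. None of the 9 members was called, where 1.39% of all genes were (0.296% higher, 1.09% lower). The differences of log2 fold changes were largest in P4ha3 (-1.52 ± 0.94 (SE), adjusted p = 0.584 by edgeR), P3h1 (-1.48 ± 0.54, adjusted p = 0.269), P4ha1 (-1.44 ± 0.32, adjusted p = 0.0569) and P4ha2 (-1.02 ± 0.43, adjusted p = 0.364). P4ha1, P4ha2 and P3h1 had an unadjusted p under 0.05, as had 12.3% of all genes. P4ha1 was called by DESeq2 (adjusted p = 0.00136) and without either MEF library (0.00111 and 0.00172), and P3h1 also without either MEF library.

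Between d6_Eff and iPSC the members went in opposite directions. P4ha1 was 7.75-fold higher in iPSC (2.96 ± 0.24 (SE), adjusted p = 5.92e-06 by edgeR) and P4ha2 9.22-fold higher (3.21 ± 0.33, adjusted p = 3.05e-05). Serpinh1 was 7.28-fold lower (-2.86 ± 0.2, adjusted p = 1.95e-06), Plod3 1.83-fold lower (-0.87 ± 0.24, adjusted p = 0.0182) and P4ha3 at least 25.8-fold lower (adjusted p = 0.00445). Of all genes 29.6% were called, 13.6% higher and 15.9% lower. P4hb (0.4 ± 0.18), P3h1 (0.56 ± 0.39), Plod1 (0.19 ± 0.32) and Plod2 (-0.38 ± 0.22) were not called, with adjusted p from 0.115 to 0.712. The Plod3 call was lost without any 1 of the 4 libraries compared (adjusted p from 0.0553 to 0.126), and P4hb and P3h1 were called higher without either MEF library.

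The make-up of the enzyme pool, compared per length as CPM per kilobase of exon, differed between the groups. P4ha1 made up 76.6% ± 7.42 (SD, n = 2) of the alpha subunit sum in MEF, 64.9% ± 0.0458 in d6_Ineff and 91.7% ± 0.379 in iPSC. The share of P4ha3 was 4.52% ± 3.49 in MEF, 18% ± 0.398 in d3_Ineff and 28.6% ± 1.18 in d6_Ineff, its highest, and nothing was counted for it in iPSC. The share of P4ha2 was 18.9% ± 3.93 in MEF, 6.46% ± 1.22 in d6_Ineff, 6.38% ± 2.46 in d6_Eff and 8.35% ± 0.379 in iPSC. Among the lysyl hydroxylases the share of Plod3 was 44.5% ± 0.29 in MEF and 25% ± 1.11 in iPSC, and that of Plod1 23.9% ± 4.5 and 30.1% ± 3.11. With 2 libraries a group these shares are given as descriptions, with no test.

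**Figure D3:**
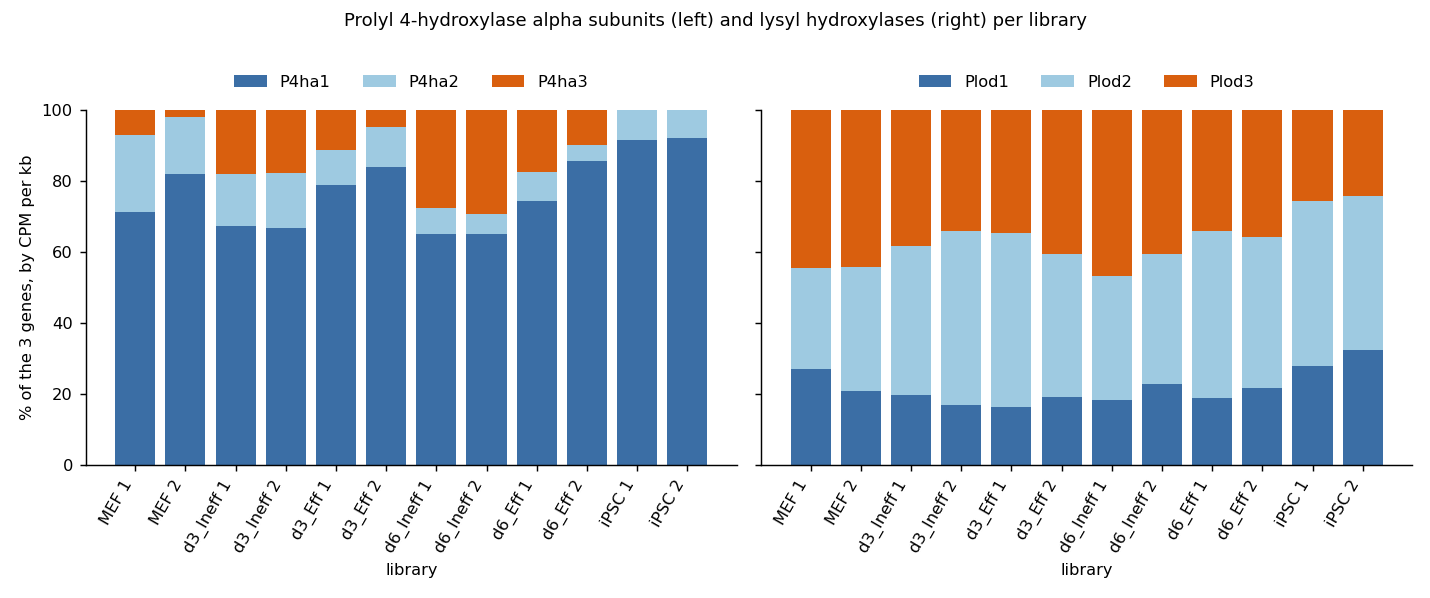
Share in percent, by CPM per kilobase, of each prolyl 4-hydroxylase alpha subunit gene (left) and each lysyl hydroxylase gene (right) in every library. The P4ha3 share is largest in both d6_Ineff libraries (27.8% and 29.5%) and absent from both iPSC libraries, where Plod3 also has its smallest share.

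The beta subunit gene was in excess of the alpha subunit genes in every library. The ratio of P4hb to the alpha subunit sum, both as CPM per kilobase, was 4.72 ± 1.83 (SD, n = 2) in MEF, 17.8 ± 0.231 in d3_Ineff, 25.7 ± 3.64 in d3_Eff, 8.54 ± 0.598 in d6_Ineff, 33.4 ± 6.22 in d6_Eff and 6.31 ± 0.176 in iPSC. Both Eff groups lay above both Ineff groups, and the iPSC ratio lay between the MEF and the Ineff ratios. Serpinh1 made up 54.6% to 67.3% of the summed CPM per kilobase of the 9 genes in MEF and the sorted groups and 13.6% to 15.2% in iPSC. In iPSC P4hb was the most abundant member, at 211 ± 12.5 CPM per kilobase beside 47.1 ± 1.61 for Serpinh1.

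The collagens, substrates of these enzymes, had larger differences between iPSC and MEF than the enzymes, with a median log2 fold change of -8.49 over the 9 of 11 fibrillar collagen genes that passed the filter, beside -2.39 over the members. The summed level of 28 collagen genes was 58862 CPM in MEF 1 and 13714 CPM in MEF 2, 2306 to 3064 in d3_Ineff, 1795 to 2103 in d3_Eff, 3976 to 4218 in d6_Ineff, 1131 to 1282 in d6_Eff and 249 to 252 in iPSC. Of these 9 fibrillar collagen genes, 9 were lower in iPSC than in MEF, 6 were lower in d6_Eff than in d6_Ineff (Col1a1 5.43-fold, adjusted p = 0.0231, and Col1a2 10.1-fold, adjusted p = 0.00143, by edgeR) and 5 were lower in iPSC than in d6_Eff. Of 16 network and other collagen genes tested of 17 the counts were 13, 7 and 9, all lower. In the same comparisons 26.7%, 9.25% and 15.9% of all genes were lower, in turn. Collagen per alpha subunit, both per kilobase, was 18.1 ± 13 (SD, n = 2) in MEF, 21.7 to 37.5 as means in the sorted groups and 1.05 ± 0.0837 in iPSC. Collagen per Serpinh1 was between 0.414 and 0.982 in 11 libraries, MEF 2 (0.932) among them, and 4.26 in MEF 1.

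**Figure D4:**
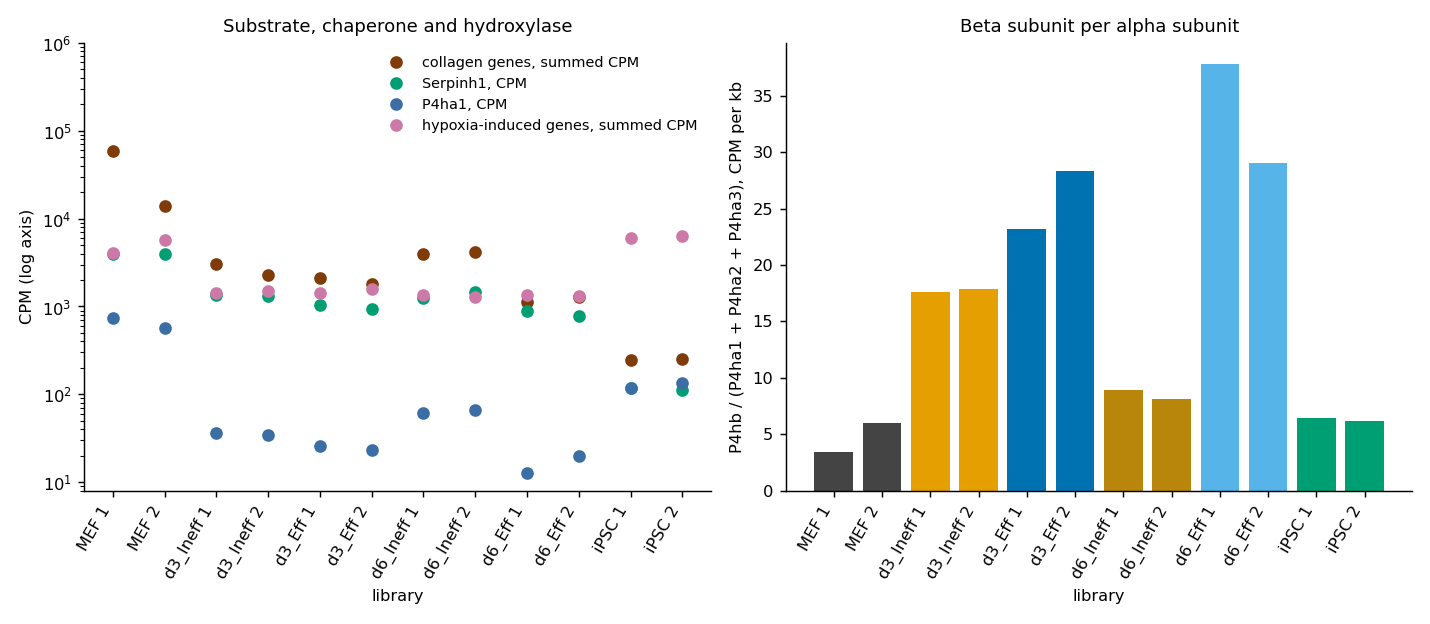
Left, on a log axis, summed CPM of 28 collagen genes and of 12 hypoxia-induced genes beside the CPM of Serpinh1 and P4ha1 in every library; right, the ratio of P4hb to the 3 alpha subunit genes, each as CPM per kilobase. Collagens and Serpinh1 are lowest in iPSC while P4ha1 and the hypoxia-induced genes are higher there than in any sorted library, and the ratio peaks in d6_Eff (29 and 37.8).

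The other genes of the pathway were read from a list of 31, in 4 steps. Against MEF, iPSC had 24 of 31 lower and 1 higher, beside 26.7% and 26% of all genes. The 1 higher was Klhl12, an adaptor in the making of large export vesicles. In d6_Eff against d6_Ineff, 19 of 31 were lower and none higher, beside 9.25% and 5.38% of all genes. In d3_Eff against d3_Ineff none was called, where 0.4% of all genes were. There, 9 had an unadjusted p under 0.05, beside 8.11% of all genes, and DESeq2 called 4. The day 3 count was 4 without MEF 1, 6 without MEF 2 and 1 without either d6_Eff library. The day 6 count was 7 to 11 when any 1 of the 4 libraries compared was left out. In iPSC against d6_Eff, 13 were lower and 7 higher, beside 15.9% and 13.6% of all genes. The median log2 fold changes of the list were -3.41, -1.6, -0.43 and -0.04 for iPSC against MEF, day 6, day 3 and iPSC against d6_Eff in turn.

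Partners of 3-hydroxylation and of collagen folding in the ER were, for the most part, lower in d6_Eff than in d6_Ineff and lower again in iPSC. P3h4, a component of a lysyl hydroxylase complex, was at 209 ± 31.2 CPM (SD, n = 2) in MEF, 179.8 ± 0.539 in d6_Ineff, 64.3 ± 1.42 in d6_Eff and 10.6 ± 0.025 in iPSC. Its log2 fold change was -1.48 ± 0.17 (SE, adjusted p = 0.000287 by edgeR) on day 6 and -2.6 ± 0.18 (adjusted p = 1.69e-06) from d6_Eff to iPSC. Crtap, the partner of P3H1, was 2.09-fold lower in d6_Eff than in d6_Ineff (adjusted p = 0.00187), and Fkbp10, a collagen prolyl isomerase, 2.65-fold (adjusted p = 0.00273) and a further 4.66-fold in iPSC (adjusted p = 5.14e-05). Of the 10 genes in this step, 8 were lower in iPSC than in MEF (26.7% of all genes) and 7 lower in d6_Eff than in d6_Ineff (9.25%). From d6_Eff to iPSC, 7 were lower (15.9% of all genes) and 1 higher (13.6%), Tmem38b, an ER potassium channel.

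Genes of export and crosslinking included some that turned up again in iPSC as P4ha1 and P4ha2 did. Kdelr3, a receptor that returns proteins to the ER, was at 255 ± 57.5 CPM (SD, n = 2) in MEF, 2.47 ± 0.085 in d6_Eff and 52.7 ± 2.84 in iPSC, 21.4-fold above d6_Eff (adjusted p = 1.95e-06 by edgeR). Loxl2, a lysyl oxidase that crosslinks collagen, was at 789.6 ± 496, 4.4 ± 0.0765 and 37.7 ± 2.9 CPM (8.55-fold higher in iPSC than in d6_Eff, adjusted p = 0.000121), and Pcolce, an enhancer of propeptide cleavage, was 4.77-fold higher (adjusted p = 6e-04). Lox itself, the founding lysyl oxidase, was at 4993 ± 202 CPM in MEF, 6.04 ± 4.06 in d6_Eff and 0.4 ± 0.286 in iPSC. Of the 7 export genes matched, 3 were higher and none lower in iPSC than in d6_Eff. Of the 12 genes of propeptide cleavage and crosslinking 3 were higher and 5 lower. Beside them, 13.6% of all genes were higher and 15.9% lower. Of the 2 hydroxylysine glycosyltransferases, Colgalt1 was 1.72-fold lower in iPSC than in MEF (adjusted p = 0.0176), and Colgalt2 was 7.91-fold lower in d6_Eff than in d6_Ineff (adjusted p = 0.0139).

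Of 14 general ER folding genes, 9 were lower in iPSC than in MEF, where 52.7% of all genes were called and 26.7% were lower. On day 6, where 14.6% of all genes were called, 1 was lower in d6_Eff than in d6_Ineff (Txndc5, a disulfide isomerase, 1.79-fold, adjusted p = 0.00968 by edgeR). From d6_Eff to iPSC, where 29.6% of all genes were called, 1 was higher (Ero1l, an ER oxidase induced by hypoxia, 3.4-fold, adjusted p = 0.00038) and 3 were lower. Of 12 genes known to be induced by hypoxia, 11 were higher and none lower in iPSC than in d6_Eff, with a median log2 fold change of 2.68, among them Bnip3 (17.1-fold, adjusted p = 7.39e-07), Slc2a1 (9.02-fold, adjusted p = 5.92e-07) and Egln3 (3.93-fold, adjusted p = 7.17e-06). Of these, Slc2a1 is also on the ascorbate list and Egln3 on that of other dioxygenases. Their sum was 4062 to 5714 CPM in MEF, 1276 to 1578 in the sorted groups and 6040 to 6355 in iPSC. In iPSC against MEF, 4 of the 12 were higher and 3 lower (26% and 26.7% of all genes), with a median of 0.08. With shares of all genes in brackets, lower than MEF were 9 in d3_Ineff (15%), 10 in d3_Eff (18.6%), 10 in d6_Ineff (15.2%) and 9 in d6_Eff (21.7%). Only in d6_Ineff was 1 higher (15.6%). On day 6, 2 of the 12 were lower in d6_Eff (Egln3 and Bnip3) with a median of 0, where P4ha1 and P4ha2 were lower. The part of this set in the course of P4ha1 and P4ha2 was not tested.

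Ascorbate, the cofactor of these hydroxylases, was in the medium of the reprogramming cultures. Of 9 genes of ascorbate transport and recycling, 4 were higher and 2 lower in iPSC than in MEF, where 52.7% of all genes were called. In iPSC against d6_Eff, where 29.6% of all genes were called, 2 were higher and 1 lower. The 2 higher than in d6_Eff were the glucose transporters Slc2a1 and Slc2a3, which also carry oxidised ascorbate. Slc2a3 was 6.75-fold higher in iPSC (adjusted p = 3.9e-06 by edgeR), and Gsto1, a dehydroascorbate reductase, was 14.7-fold lower (adjusted p = 3.65e-06). Gulo, the last enzyme of ascorbate synthesis, had no counts in MEF and d3_Eff, 0.109 ± 0.155 CPM (SD, n = 2) in d3_Ineff, 0.725 ± 0.361 in d6_Eff, 2.65 ± 0.879 in d6_Ineff and 5.06 ± 0.293 CPM in iPSC. Beside the same shares of all genes, 8 of 16 other ascorbate and 2-oxoglutarate dioxygenases were higher and 2 lower in iPSC than in MEF. In iPSC against d6_Eff, 7 were higher and 1 lower. Tet1, a 5-methylcytosine oxidase, was at 3.29 ± 0.31 CPM in MEF, 37.5 ± 2.13 in d6_Eff and 342 ± 14.4 in iPSC.

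Likeness of pattern is given as Pearson's r of log2 CPM over the 12 libraries, which fall into 6 groups of 2 and share the high MEF libraries, so it is a description. Among 10388 protein-coding genes at a mean of 5 CPM or more, the nearest to P4ha1 was Mfge8 (0.99), to P4ha2 Loxl2 (0.993), to P4ha3 Synpo (0.98), to P4hb Il1rl1 (0.99) and to Plod1 Fn1 (0.976). For Plod2 it was Scfd1 (0.963), for Plod3 Sulf1 (0.984), for P3h1 Jdp2 (0.97) and for Serpinh1 Smpd1 (0.994). The second nearest were Prrc1, Itga5, Creb3l2, Stbd1, Scarb1, Tmem19, Angptl2, Jak1 and Dnajb4, in the same order. Among the members themselves, over the 10 libraries without MEF, r was 0.86 between P4ha1 and P4ha2, 0.95 between P4ha3 and Plod3 and 0.93 between Serpinh1 and each of P4ha3 and Plod3, while it was -0.65 between P4ha1 and Serpinh1.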

How the data were processed

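The authors deposited 1 table of counts per library, whole reads per Ensembl gene. Per the submitters' processing notes, STAR 2.3.0, Picard 1.100 and HTSeq 0.6.0 were used with build mm9. Settings and gene annotation are not given in the sources used here, and the deposited counts ignore strand, per the deposited file names. Reads outside genes, 5.1% to 47.2% of a library's gene and non-gene reads, were left out.

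Symbols (32860 of 37583 identifiers, 87.4%), exon lengths and overlaps came from GENCODE M21, a later build, so no coordinates of genes are given. Of 165 list entries 1 (Mia3) was unmatched. Promoters came from RefSeq (GRCm38.p6).

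Counts were fitted with edgeR 4.0.16 and limma 3.58.1 (R 4.3.3): filterByExpr, TMM, 1 mean per group over all 12 libraries, robust quasi-likelihood (6 residual degrees of freedom, median prior 5.04, biological coefficient of variation 28%), tested in 11 comparisons. SE is the absolute log2 fold change over the square root of F. Levels are TMM-scaled CPM. Log2 CPM carry a prior count of 2. DESeq2 1.42.0, other scaling, filters, a replicate block, fewer groups and each left-out library were alternatives. The scripts were tested on simulated data.

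Members and gene lists were chosen with earlier results of these data known. Named are all members, of each list up to 3 called genes per direction with the smallest adjusted p, and the 2 genes most like each member. A gene outside this rule, such as Laptm5, Ptprc, Pdgfra or Mia3, is named only to account for a small count, a marker sum or a marker at 0, after its value was seen.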

Additional observations from a re-analysis of the deposited data

Results flagged for a closer look

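In 2 genes of the collagen lists, the difference between the Eff and Ineff populations itself differed between day 3 and day 6 by the interaction term of edgeR's fit. The log2 fold change of d6_Eff against d6_Ineff minus that of d3_Eff against d3_Ineff was -2.49 ± 0.53 (SE, adjusted p = 0.0497) in Col15a1, a basement membrane collagen, and -1.12 ± 0.23 (adjusted p = 0.0424) in P3h4. Col15a1 was at 62.9 ± 12 CPM (SD, n = 2) in d3_Ineff, 39.5 ± 2.57 in d3_Eff, 118 ± 8.71 in d6_Ineff and 13.2 ± 0.199 in d6_Eff. P3h4 was at 164 ± 9.23, 128 ± 4.11, 179.8 ± 0.539 and 64.3 ± 1.42 CPM. Of all genes 1.39% were called in this test. Of the 31 other genes of the pathway P3h4 was the 1 called, and this count was 0 when any of 9 single libraries was left out (all but d6_Eff 1, MEF 1 and MEF 2) and 10 without either MEF library. Both adjusted p lie close to the threshold. In both genes each Eff library was below each Ineff library of the same day, as in 20.7% of all genes on day 3 and 31.8% on day 6.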

How the results depend on the processing

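Of the members' results under all alternatives, 1688 kept their direction and side of the threshold, 52 became called, 29 lost the call and 13 changed sign, the last only when a library was left out. The cause of these changes was not tested. A log2 difference that rounded to 0 could not be counted as a change of sign. Replicate numbers appear in the labels without a shared animal or day, and deviations of same-numbered libraries correlated by -0.1 to 0.21 over 15 pairs of groups, so no pairing was established. A replicate block changed no member's call and gave 75 in place of 65 genes in d3_Eff against d3_Ineff. With 2 libraries a group, the spread is pooled over groups, and a lone library left by omitting its partner is assumed to vary like the others.

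With DESeq2, genes called were 425 in d3_Eff against d3_Ineff, 2245 in d6_Eff against d3_Eff (1479 by edgeR), 1568 in d6_Ineff against d3_Ineff (717) and 807 in the interaction (225). Without the filter they were 459 on day 3, 1362 in d6_Ineff against d3_Ineff and 832 in the interaction. With only the groups compared in the fit they were 700 on day 3, 5002 on day 6 (2375), 2443 in d6_Eff against d3_Eff, 2574 in d6_Ineff against d3_Ineff, 1237 in the interaction, 7657 in iPSC against d6_Eff (4801) and, against MEF, 2138 in d3_Ineff (4876), 3247 in d3_Eff (5935), 2344 in d6_Ineff (5002) and 3968 in d6_Eff (6914). Without MEF 2 and d6_Eff 2, an alternative added after seeing the data, they were 706 on day 3, 2693 in d6_Ineff against d3_Ineff and 949 in the interaction.

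Leaving out 1 library gave 4 to 644 on day 3, 930 to 4715 on day 6, 657 to 2958 in d6_Eff against d3_Eff, 103 to 2607 in d6_Ineff against d3_Ineff, 20 to 1349 in the interaction, 2834 to 6815 in iPSC against d6_Eff, 2946 to 6798 in d3_Ineff against MEF and 3112 to 7237 in d6_Ineff against MEF. The lowest counts came without a library of the groups compared, the highest without MEF 1 or MEF 2.

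Members called on day 3 were 1 with DESeq2, 2 without the filter, 2 with only the groups compared, 2 without MEF 2 and d6_Eff 2, and 0 to 2 with 1 library out. In d6_Ineff against d3_Ineff they were 1, 2, 2, 2 and 0 to 2 in that order. In the interaction they were 1, 2, 2, 2 and 0 to 3, and 1 with at least 1 CPM in 2 libraries. In d6_Eff against d3_Eff they were 2 without the filter, 3 without MEF 2 and d6_Eff 2, and 0 to 3 with 1 library out. They were 3 to 6 in d6_Eff against d6_Ineff with 1 library out, and 8 in iPSC against d6_Eff with only the groups compared. P3h1 in d6_Ineff against MEF was called with DESeq2 (adjusted p = 0.0191), with its size factors (0.0429), without the filter (0.000434), with at least 1 CPM in 2 libraries (0.0463) and without MEF 2.

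Log2 differences that changed sign when 1 library was left out were P4ha3 in d6_Eff against d3_Eff (-0.5 to 0.94) and in d6_Ineff against MEF (-1.45 to 0.97), Plod1 on day 6 (-0.35 to 0.1) and in the interaction (-0.11 to 0.33), and Plod2 on day 3 (-0.53 to 0.1) and in d6_Eff against d3_Eff (-0.08 to 0.47). Serpinh1 in d6_Ineff against d3_Ineff was 0 with all libraries and ran from -0.14 to 0.11. None of these was called with all libraries.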
